A study of Homo sapiens with 8 samples.

Results

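Keratins are the structural proteins of the intermediate filaments of epithelial cells. Their genes were taken from a genome-wide knockout screen by symbol, as KRT followed by a number and at most 1 letter from A to C, which gave 55 of the 18913 genes targeted and 327 of its 119461 guides. The rule reads symbols only. For description the 55 genes were sorted into 4 basal keratins (KRT5, KRT14, KRT15, KRT17), 4 luminal keratins (KRT7, KRT8, KRT18, KRT19), 17 hair keratins, 9 keratins of the hair root sheath, 16 suprabasal and stress keratins and 5 further members. By sequence type 29 were type I, counting the keratin-like KRT222, and 26 were type II.

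The screen was run in MB157R cells, a triple-negative breast cancer line with acquired resistance to a γ-secretase inhibitor (GSI) that stably carried Cas9. Cells received the human GeCKOv2 guide library and were selected with puromycin, so every group below shares the resistance, Cas9 and 1 transduced pool. From that pool 2 T0 samples were frozen, and the remaining cells were grown for 14 days as 3 cultures with the vehicle DMSO and 3 with the GSI LY3039478 at 10 µM. Guides were read out of genomic DNA by PCR and sequencing, so the measurement is how many cells carry each guide, not keratin RNA or protein.

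Keratin filaments are built from obligate pairs of 1 acidic type I and 1 basic type II chain. They give epithelial sheets their mechanical strength by linking desmosomes between cells and hemidesmosomes at the basement membrane. In the breast, KRT5 and KRT14 mark the basal layer and KRT8, KRT18 and KRT19 the luminal layer. The hair keratins harden the hair shaft. A guide whose target the cells need becomes rarer in culture, and a guide whose target restrains growth becomes more common.

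Total counts per library ran from 12.1 M to 18.2 M (M, 1e+06), and 38.8% of those in GSI replicate 1 came from 1 guide against VPS33B, a trafficking gene outside the family. That library had the highest total, but 11.1 M without this guide. Its median count over keratin guides, 62, was the lowest of the 8 libraries. Of the 327 keratin guides, 5.20% had no count in T0 replicate 1 and 9.48% in T0 replicate 2. In DMSO replicates 1 to 3, 1.83%, 2.75% and 1.53% had none. For GSI replicates 1 to 3 the values were 0%, 2.14% and 0.917%. For 0 of 327 the exact Clopper-Pearson 95% interval reached 1.12%. This interval treats guides as independent draws and covers neither read depth nor the spread between cultures. Of all guides, 5.12% and 11.5% had no count in T0 replicates 1 and 2 and 0.738% to 3.94% in the libraries of day 14, so both T0 libraries lacked more guides in the whole library as well as among keratins. Ranked over the keratin guides, the T0 libraries correlated with each other at a Spearman's rho of 0.39, DMSO libraries among themselves at 0.55 to 0.62 and GSI libraries at 0.67 to 0.72. DMSO replicate 1 and GSI replicate 1, though of different groups, formed the pair with the highest value, 0.84. These are values across guides, which are not independent replicates.

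Of the 327 keratin guides, 323 passed the minimum mean count of 10, and 275 were counted in all 8 libraries. The 4 that did not pass targeted KRT14, KRT18, KRT20 and KRT83, 1 guide each. KRT6C was targeted by 5 guides and KRT86 by 4, and the other 53 genes by 6. All 55 genes kept at least 4 tested guides. A gene's log2 fold change below is the median over its tested guides, with the SD over guides. Mean normalized counts are over the same guides, and p-values measure the spread between cultures or T0 aliquots of 1 pool. A gene's median level over guides is the median of log2 of the normalized count plus 1, less the T0 mean. By this level all DMSO libraries lay above both T0 libraries in 14.8% of all genes tested and below them in 13.7%. The shares were 16% and 13.7% in GSI against T0 and 4.9% and 4.44% in GSI against DMSO. For mean counts no such share was computed, so a lack of overlap in them is description only.

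DMSO against T0 asked which keratins the resistant cells needed for growth without the inhibitor. No keratin was called lower or higher by robust rank aggregation (RRA) of edgeR guide tests at an adjusted p under 0.05, where the background over all 18570 genes tested was 0.0323% lower and 0% higher. Without adjustment, 2 keratins had a p under 0.05 on the low side and 1 on the high side, or 3.64% and 1.82%, below the 6.3% and 5.3% of all genes. With guide tests by DESeq2 no keratin was called either, and 7 genes were called in all. Of single guides, 0 of 323 passed in edgeR (background 0%). At an unadjusted p under 0.05 edgeR gave 12 lower and 13 higher, against 3.57% and 4.18% of all guides. After adjustment DESeq2 called 16 of the 323 keratin guides, and 6615 of 116852 guides in all.

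The family as a whole was centred where all genes were. The median log2 fold change was 0.000503 over the 55 keratins and 0.00313 over all genes, and 27 keratins were negative and 28 positive (background below 0, 49.7%). A fold change of 0.5 or more was seen in 7 keratins (background 17.9%) and of −0.5 or less in 9 (background 17.6%). It was 1 or more in 1 keratin (background 4.17%) and −1 or less in 2 (background 4.86%). The SD over genes was 0.48 for keratins and 0.62 for all genes. For scale, 84 ribosomal protein genes had a median of −1.03. The medians were −0.09 for basal, −0.09 for luminal, −0.05 for hair, 0.14 for root sheath, 0.00 (−0.000892) for suprabasal and stress and 0.05 for further keratins. The spread within a class was wider than these distances, from −1.16 to 1.34 in the hair keratins alone.

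**Figure D1:**
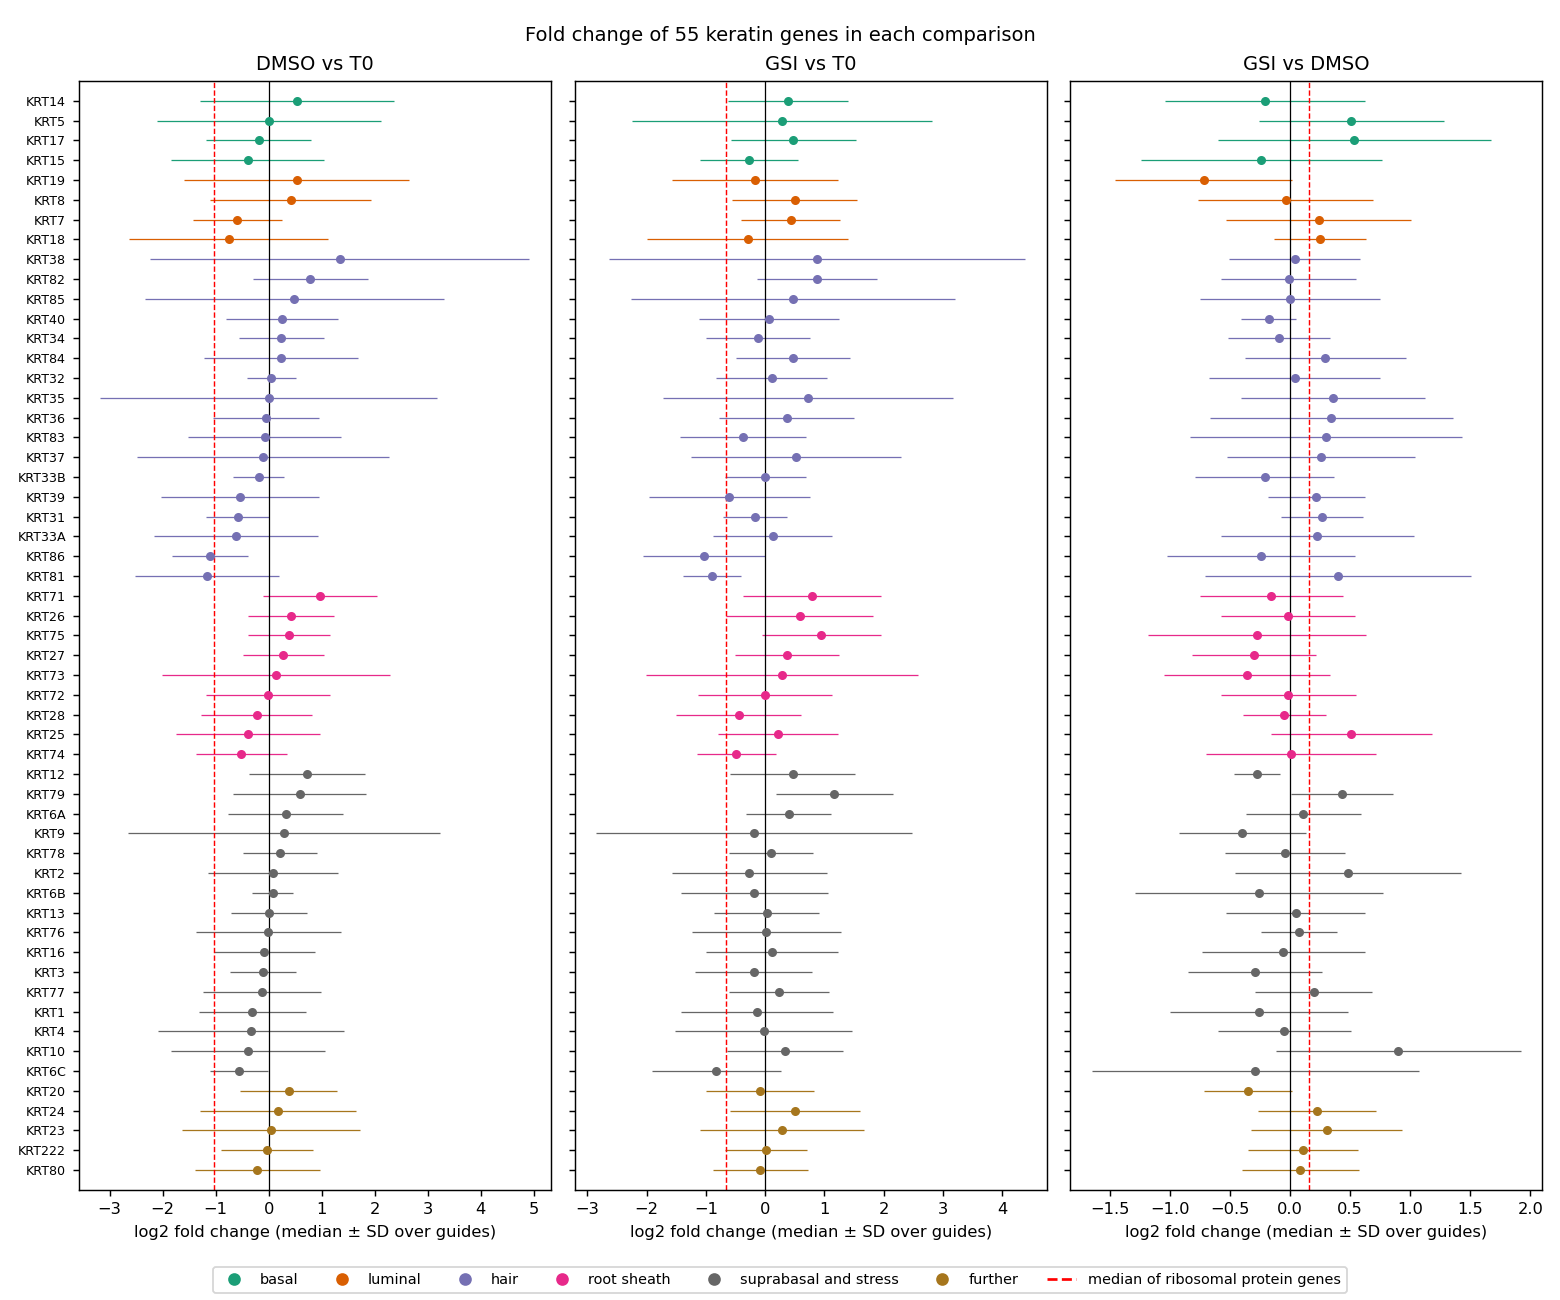
Log2 fold change of each of the 55 keratin genes (points, median over guides; bars, SD over guides) in the 3 comparisons, with genes grouped and coloured by class and a dashed line at the median of ribosomal protein genes. Most keratins lie around 0, and in DMSO against T0 the hair keratins KRT81 and KRT86 lie nearest to the ribosomal line of −1.03.

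The keratin with the lowest p was KRT81, a type II keratin of the hair cortex (chromosome 12, 52285913 to 52291534, minus strand, GRCh38). Its mean normalized counts were 182 and 180.3 in the T0 replicates, 67.8, 69.4 and 101 in the DMSO replicates and 91.8, 118 and 94.4 in the GSI replicates. All 6 libraries of day 14 lay below both T0 libraries, and the DMSO and GSI libraries overlapped. Its fold change in DMSO against T0 was −1.16 ± 1.35, which ranked 21st of 18570 genes by p on the low side (adjusted p = 0.0900, RRA of edgeR guide tests). It did not pass the threshold. Over the 15 alternatives the adjusted p ran from 0.0346 to 1. RRA on the guide p-values themselves, not on their ranks, called it (adjusted p = 0.0346) among 50 genes, and without T0 replicate 1 the adjusted p was 0.657.

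All 6 guides against KRT81 had a negative fold change, from −4.35 to −0.74, with edgeR guide p-values from 0.0281 to 0.282. Of all genes, 2.69% had every tested guide below 0, and of the keratins 2 did, KRT81 and KRT86. The guide with the lowest value had normalized counts of 44.5 and 131 at T0, 0, 9.26 and 3.19 with DMSO, and 6.28, 73.3 and 12.7 with GSI. GSI replicate 2 was within the T0 range for this guide, and the other 5 libraries of day 14 were below it.

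KRT86, also a type II keratin of the hair cortex (chromosome 12, 52249300 to 52309163, plus strand), gave similar values. Its mean counts were 165 and 177 at T0, 102, 85.2 and 109.6 with DMSO and 97.9, 84.2 and 111 with GSI, so that again no library of day 14 reached T0. The fold change in DMSO against T0 was −1.11 ± 0.71, with 4 of 4 guides negative (adjusted p = 0.930, RRA of edgeR guide tests). KRT83, another hair cortex keratin of the same cluster (chromosome 12, 52314301 to 52321398, minus strand), was named after its values were seen. Its mean counts were 125 and 88.3 at T0 and 58.4, 88.5 and 92.6 with DMSO, which overlapped, and its fold change was −0.08 ± 1.45. Of its 5 tested guides, 4 were negative. By the median level over guides every library of day 14 was below T0. KRT83 was then at 0.02 and −0.02 at T0 and −1.78, −0.57 and −0.55 with DMSO, a separation that 13.7% of all genes had. With GSI the levels were −1.76, −0.72 and −0.57.

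**Figure D2:**
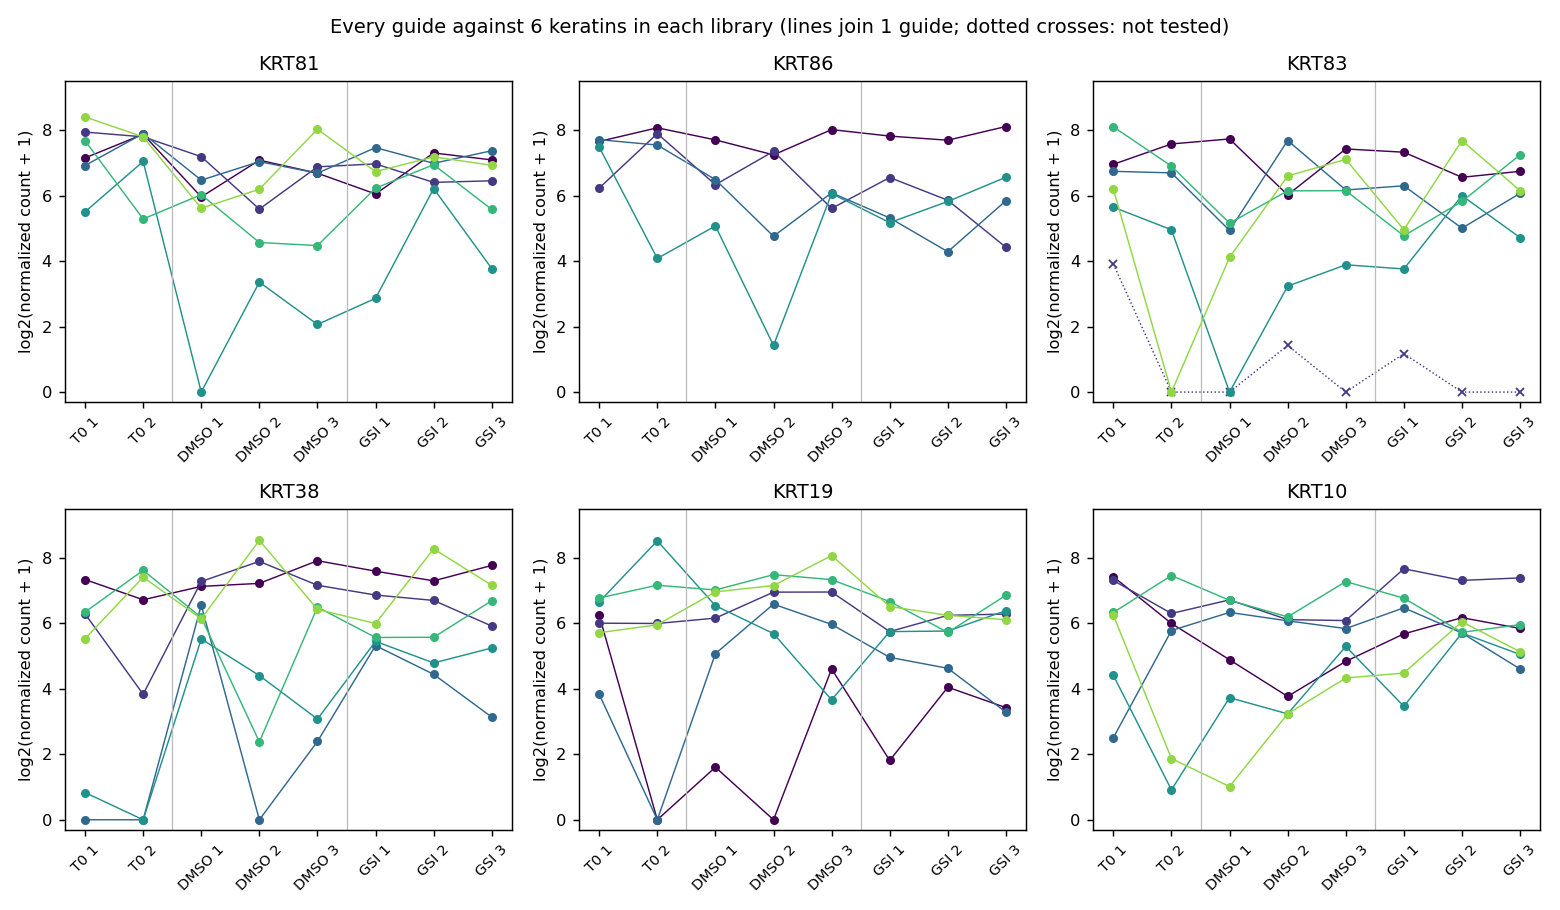
Normalized count of every guide against 6 keratins in each of the 8 libraries, as log2 of the count plus 1, with a line for each guide and dotted crosses for a guide that did not pass the minimum count. Most KRT81 guides and 3 of 4 KRT86 guides sit lower at day 14 than at T0, while 2 KRT38 guides start at or near 0 at T0 and several KRT19 guides sit lower with GSI than with DMSO.

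KRT81, KRT83 and KRT86 share much of their coding sequence, so a guide designed against one can match another. The guide sequences were not analysed here. In their place every candidate site in the coding exons of the keratins, 20 bases followed by the NGG motif that Cas9 needs (PAM), was looked up in GRCh38. KRT81 had 257 such sites, of which 73.5% had a further exact match in the genome, and 150 of them were also in KRT86 and 92 in KRT83. The share with a further match was 74.1% of 239 sites in KRT86 and 50.2% of 251 in KRT83. The fold changes of KRT81 and KRT86 are for this reason uncertain as to which gene was cut. The sites below are shown because they make that overlap visible; the last 3 letters, in capitals, are the PAM. The first lies in coding exons of KRT81 (chr12:52291361-52291383, plus strand) and KRT86 (chr12:52301999-52302021, minus strand), and the second in those of KRT81 (chr12:52291337-52291359, minus strand), KRT83 (chr12:52321192-52321214, minus strand) and KRT86 (chr12:52302023-52302045, plus strand). The last occurs once in the genome, in KRT81 (chr12:52291443-52291465, minus strand).
KRT81 and KRT86: gatgccacggtagggggcggCGG
KRT81, KRT83 and KRT86: cctgctaccgcggcctcaccGGG
KRT81 alone: atgacctgcggatcaggattTGG

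Next on the low side was KRT37, a type I hair keratin. Its mean counts were 53.7 and 92.3 at T0 and 48.5, 30.0 and 63.5 with DMSO. The groups overlapped, and the fold change was −0.11 ± 2.37 (adjusted p = 0.725, RRA of edgeR guide tests) with 3 guides on either side of 0. KRT2, a type II keratin of the upper epidermis, followed, with counts of 132 and 171 at T0 and 66.6, 121 and 71.1 with DMSO. Its groups did not overlap, yet the median over its guides was 0.08 ± 1.23 (adjusted p = 0.799, RRA of edgeR guide tests), with guides from −2.76 to 0.34.

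On the high side KRT38, a type I hair keratin (chromosome 17, 41436154 to 41440983, minus strand), came first. Its mean counts were 60.7 and 80.3 at T0 and 95.3, 129.9 and 94.7 with DMSO, which did not overlap. As a median level over guides (log2 of the normalized count plus 1, less the T0 mean) the groups overlapped. These levels were 0.32 and −0.32 at T0 and 0.77, 0.22 and 0.87 with DMSO. The fold change was 1.34 ± 3.58 (adjusted p = 0.823, RRA of edgeR guide tests), with 5 of 6 guides positive. It was 2.24 without T0 replicate 1 and 0.54 with a minimum mean count of 50. Of its 6 guides, 1 had raw counts of 0 and 0 at T0 and 91, 0 and 4 with DMSO, and another had 1 and 0 at T0 and 44, 24 and 7 with DMSO. No fold is given for these 2 guides, and the gene's median lies between guides at 0.71 and 1.97 that were counted at T0. KRT71, a type II keratin of the inner root sheath, had counts of 94.4 and 63.0 at T0 and 176, 126 and 127 with DMSO, with no overlap and a fold change of 0.97 ± 1.07 (adjusted p = 0.946, RRA of edgeR guide tests). KRT73, another type II keratin of the inner root sheath, had 57.7 and 125 at T0 and a fold change of 0.14 ± 2.15. Its DMSO counts, 88.2, 89.6 and 73.6, were all within the T0 range.

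Among the basal keratins, KRT14 had mean counts of 161 and 109.9 at T0 and 169, 226 and 93.6 with DMSO. Its type II partner KRT5 had 81.1 and 68.6 at T0 and 105, 74.0 and 51.3 with DMSO. In both genes the DMSO libraries lay on either side of the T0 values, and the fold changes were 0.54 ± 1.83 for KRT14 and 0.01 ± 2.12 for KRT5. KRT15, found in basal cells and in hair follicle stem cells, had 141 and 124 at T0 and 111, 86.0 and 147 with DMSO, with a fold change of −0.39 ± 1.44. KRT17, induced in wounded and tumour epithelia, had 67.7 and 65.8 at T0 and 71.3, 47.8 and 55.2 with DMSO, with a fold change of −0.19 ± 1.00. The groups overlapped for all 4 basal keratins.

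Among the luminal keratins, KRT18, the type I chain of simple epithelia, had mean counts of 110.3 and 119.6 at T0 and 82.9, 79.6 and 76.7 with DMSO. These counts did not overlap. By the median level over guides the DMSO libraries, at 0.39, 0.58 and 0.35, lay between the T0 values of −0.74 and 0.74. Its fold change was −0.76 ± 1.87, with 4 of its 5 tested guides negative (adjusted p = 0.877, RRA of edgeR guide tests). Its type II partner KRT8 had 104 and 68.4 at T0 and 114, 80.9 and 106 with DMSO, and a fold change of 0.41 ± 1.52. The partners thus had medians of opposite sign, each smaller than the SD over its guides. KRT7, a type II chain of glandular epithelia, had 178 and 65.5 at T0 and 131, 112 and 80.9 with DMSO, with a fold change of −0.59 ± 0.84. KRT19, a type I chain of luminal cells, had 68.5 and 105 at T0 and 74.9, 98.0 and 108 with DMSO, with a fold change of 0.53 ± 2.13. In mean counts the 2 T0 libraries of KRT7, KRT8 and KRT19 lay farther apart than the group means. By the median level over guides KRT8 and KRT19 were above T0 in every DMSO library, as were 14.8% of all genes. KRT8 was at 1.41, 1.63 and 2.14 with DMSO and at 0.94 and −0.94 at T0. KRT19 was at 0.30, 0.72 and 0.41 with DMSO and at 0.07 and −0.07 at T0. KRT7 overlapped by this level too.

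Basal and luminal keratins together had a median fold change of −0.09 and hair and other keratins 0.000503, a difference of −0.09. This difference moved with single libraries, to 0.25 without T0 replicate 1, −0.40 without T0 replicate 2, −0.26 without DMSO replicate 1 and 0.07 without DMSO replicate 3, and it was 0.35 with a minimum mean count of 50. A level per library, the median over a class's guides of log2 of the normalized count plus 1 less the T0 mean, gave another picture. Over 23 luminal guides it was 0.76, 0.63 and 0.78 in the DMSO replicates, 0.22, 0.04 and 0.33 in the GSI replicates and 0.22 and −0.22 at T0. All DMSO libraries were above the others, in contrast to the luminal median of −0.09 over genes, so that the sign depends on the summary. Over 23 basal guides the level was −0.02, −0.28 and −0.18 with DMSO and −0.14, −0.31 and 0.08 with GSI, around T0 values of −0.06 and 0.06.

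Subtracting the level of hair and other keratins from that of basal and luminal keratins gave 0.53, 0.31 and 0.30 in the DMSO replicates, 0.17, −0.03 and 0.03 in the GSI replicates and 0.12 and −0.12 at T0. The 3 DMSO values were above the other 5. The non-targeting control guides were at 0.28 ± 0.05 in the DMSO libraries and at 0.23 ± 0.06 in the GSI libraries (SD, n = 3). Over all 323 keratin guides the DMSO libraries had a level of −0.02 ± 0.09 and the GSI libraries one of −0.04 ± 0.13 (SD, n = 3 in either group). No test was run on these levels, which describe chosen classes.

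**Figure D3:**
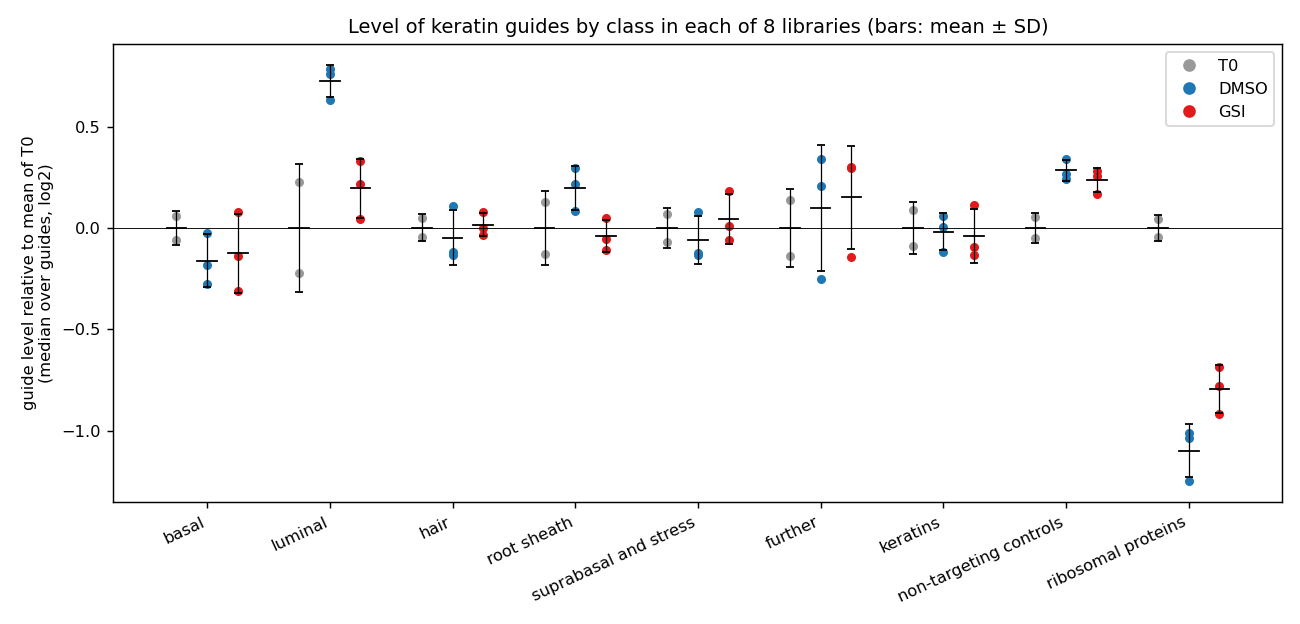
Level of the keratin guides of each class in each library (points), as a log2 difference from the T0 mean, with the mean and SD of each group (T0, n = 2; DMSO and GSI, n = 3), beside non-targeting controls and ribosomal proteins. Luminal guides sit at 0.63 to 0.78 in the DMSO libraries, and the other keratin classes lie between −0.31 and 0.34 over all libraries, a range that holds the luminal GSI values and most non-targeting controls, while guides against ribosomal proteins lie at −1.25 to −1.01 with DMSO.

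GSI against T0 asked the same of growth with the inhibitor, against the same T0 libraries, so its values are not independent of those above. No keratin was called (background 0% lower and 0% higher, RRA of edgeR guide tests), nor with DESeq2, which called 2 genes in all. At an unadjusted p under 0.05 there were 2 on the low side, against 5.88% of all genes, and 4 on the high side, 7.27% against 5.39%. Of single guides, 0 of 323 passed in edgeR (background 0%), and 14 were lower and 12 higher before adjustment (p under 0.05) against 3.8% and 4.82% of all guides. After adjustment DESeq2 called 20 of the 323 keratin guides, and 7898 of 116852 guides in all. The median was 0.11 over keratins and −0.000314 over all genes, with 21 keratins negative and 34 positive (background below 0, 50%). Here 8 keratins were at 0.5 or more (background 16.5%) and 4 at −0.5 or less (background 15.7%), 1 at 1 or more (background 3.55%) and 1 at −1 or less (background 3.32%). The 1 keratin with every guide above 0 (background 2.19%) was KRT35, a type I hair keratin named after its values were seen. It was at 0.72 ± 2.45, with guides from 0.025 to 6.50. Type I keratins had a median of 0.12 and type II keratins 0.06.

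The 2 keratins of the low side were KRT73 and KRT81. KRT81 had a fold change of −0.89 ± 0.49 (adjusted p = 0.812, RRA of edgeR guide tests), with 6 of 6 guides negative and no overlap of the counts given above. It was the only keratin with every guide below 0, against 2.43% of all genes. KRT73 had counts of 67.2, 76.0 and 81.8 with GSI, within its T0 range of 57.7 to 125. Its fold change was 0.29 ± 2.30 although its p was on the low side (adjusted p = 0.745, RRA of edgeR guide tests). Its guides ran both ways, 3 negative and 3 positive, from −2.78 to 2.51. KRT86 was next at −1.04 ± 1.03 (adjusted p = 0.880, RRA of edgeR guide tests), with 3 of 4 guides negative.

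On the high side KRT38 again came first, with mean counts of 83.1, 110.4 and 94.3 with GSI, above both T0 values. By the median level over guides the GSI values, 0.19, 0.54 and 0.71, overlapped T0. The fold change was 0.87 ± 3.51 (adjusted p = 0.854, RRA of edgeR guide tests), or 1.84 without T0 replicate 1. Its 2 guides at or near 0 at T0 had raw counts of 31, 28 and 8 and of 34, 36 and 38 with GSI. KRT24, a type I keratin, had counts of 116 and 98.9 at T0 and 154, 154 and 129 with GSI, with no overlap and a fold change of 0.50 ± 1.10 (adjusted p = 0.916, RRA of edgeR guide tests). KRT71 had mean counts of 129.7, 161 and 113 with GSI, above its T0 values, and a fold change of 0.79 ± 1.16. Its median levels over guides with GSI, 0.29, −0.21 and 0.27, lay within its T0 range of −0.44 to 0.44. The last was KRT79, a type II keratin named after its values were seen, with 137 and 88.2 at T0 and 144, 148 and 139 with GSI. Its GSI libraries exceeded both T0 libraries, the nearer by a small margin, and its fold change was 1.17 ± 0.99.

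Basal and luminal keratins had a median of 0.33 with GSI and hair and other keratins 0.10, both against T0. The difference of 0.24 turned to −0.46 without T0 replicate 2 and was 0.14 without T0 replicate 1 or GSI replicate 1. Of the basal keratins, KRT5 had counts of 111, 127 and 79.5 with GSI and a fold change of 0.28 ± 2.53, and KRT14 had 138, 147 and 133 and a fold change of 0.38 ± 1.02, both overlapping T0. KRT17 had 60.5, 85.9 and 84.5 and a fold change of 0.47 ± 1.06. KRT15 had 94.6, 85.3 and 112, below both T0 libraries, and a fold change of −0.27 ± 0.83. Of the luminal keratins, KRT7 had 136, 136 and 104 and a fold change of 0.43 ± 0.84, and KRT8 had 115, 106 and 77.1 and a fold change of 0.50 ± 1.05. KRT18 had 88.9, 83.8 and 118 and a fold change of −0.29 ± 1.70. KRT19 had 54.8, 49.0 and 60.2, below both T0 libraries, and a fold change of −0.17 ± 1.41 with 3 guides on either side of 0. By the median level over guides KRT8 was at 1.45, 1.66 and 0.97 with GSI, above its T0 values of 0.94 and −0.94. KRT17, at 0.60, 0.49 and 0.51, was also above its T0 values of −0.05 and 0.05. Such a separation was seen in 16% of all genes. By the same level KRT19 overlapped T0. No basal or luminal keratin had an unadjusted p under 0.05 on either side.

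GSI against DMSO, the comparison that asked which genes the resistant cells need under γ-secretase inhibition, gave no keratin call either (background 0% lower and 0% higher, RRA of edgeR guide tests), nor with DESeq2. At an unadjusted p under 0.05 there was 1 keratin on the low side (1.82%, against 5.1% of all genes) and 4 on the high side (7.27%, against 5%). Of single guides 0 of 323 passed in edgeR (background 0%) and in DESeq2. At an unadjusted p under 0.05 edgeR gave 5 lower and 3 higher, against 1.48% and 1.53% of all guides. The median was 0.01 over keratins and −0.02 over all genes, and the SD over genes was 0.30 in both. In no keratin did the fold change reach 1 in either direction, which 0.323% of all genes did upward and 0.0539% downward.

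The 1 keratin on the low side was luminal, KRT19 (chromosome 17, 41523617 to 41528308, minus strand). Its mean counts were 74.9, 98.0 and 108 in the DMSO replicates and 54.8, 49.0 and 60.2 in the GSI replicates. The groups did not overlap, and in mean counts all GSI libraries were also below both T0 libraries, at 68.5 and 105. By the median level over guides, GSI replicate 3 was above both T0 libraries. The fold change was −0.72 ± 0.74, ranked 110th on the low side, with 4 of 6 guides negative (adjusted p = 0.941, RRA of edgeR guide tests). Over the 16 alternatives it stayed between −0.91 and −0.60 with an adjusted p of 0.861 or more.

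Its single guides were uneven. The most negative had normalized counts of 32.7, 95.1 and 61.6 with DMSO and 30.1, 23.7 and 8.76 with GSI, with 13.3 and 0 at T0 (fold change −1.60). The next had 124, 141 and 268 with DMSO and 90.4, 74.8 and 68.1 with GSI, with 51.5 and 61.0 at T0 (fold change −1.19). For both guides every GSI library was below every DMSO library, and for the second every GSI library was above T0. The 2 guides of opposite sign were at 0.16 and 0.28. Of the candidate sites of KRT19, 27.8% had a further exact match in the genome. A site found once in the genome is shown for contrast with those of KRT81, again with the PAM in capitals (chr17:41528218-41528240, plus strand).
KRT19 alone: cgacgactggcgatagctgtAGG

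Among keratins of the high side KRT10 came first, the type I chain of the suprabasal epidermis (chromosome 17, 40818117 to 40822614, minus strand). Its mean counts were 54.8, 39.4 and 60.3 with DMSO and 79.9, 74.7 and 62.3 with GSI. In mean counts all GSI libraries were above all DMSO libraries, by a small margin between GSI replicate 3 and DMSO replicate 3, and within the T0 values of 84.6 and 62.2. The fold change was 0.90 ± 1.02, with 4 of 6 guides positive (adjusted p = 0.802, RRA of edgeR guide tests), and 0.41 with a minimum mean count of 50. By the median level over guides the groups overlapped. The guide with the lowest p had normalized counts of 104, 68.2 and 66.9 with DMSO and 202, 158 and 166 with GSI, with no overlap (fold change 1.13). The guide with the highest fold change, 2.07, had 1.02, 8.41 and 19.1 with DMSO, 21.3, 65.2 and 34.1 with GSI and 74.9 and 2.65 at T0, so that its T0 libraries lay farther apart than the groups. Of the remaining 4 guides, 2 were positive and 2 negative.

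Of the other keratins with a low p on the high side, KRT2 had mean counts of 66.6, 121 and 71.1 with DMSO and 81.4, 88.5 and 182 with GSI, with a fold change of 0.48 ± 0.94 (adjusted p = 0.965, RRA of edgeR guide tests). KRT33A, a type I keratin of the hair cortex, had 102, 141 and 130.4 with DMSO and 127, 137 and 176 with GSI, with a fold change of 0.23 ± 0.80 at the same adjusted p. The groups overlapped in both genes, and likewise in KRT25, a type I keratin of the inner root sheath named after its values were seen. It had 81.5, 65.5 and 86.5 with DMSO and 83.5, 125 and 108 with GSI, and a fold change of 0.51 ± 0.67. On the low side KRT71 (−0.16 ± 0.59) and KRT15 (−0.24 ± 1.00) followed KRT19, and their mean counts overlapped between the groups.

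The other basal and luminal keratins had signs of both kinds within each layer. KRT5 had mean counts of 105, 74.0 and 51.3 with DMSO and 111, 127 and 79.5 with GSI, and a fold change of 0.51 ± 0.77 (adjusted p = 0.982, RRA of edgeR guide tests). KRT17 had 71.3, 47.8 and 55.2 with DMSO and 60.5, 85.9 and 84.5 with GSI, and a fold change of 0.53 ± 1.13 (adjusted p = 0.976, RRA of edgeR guide tests). Both overlapped in mean counts, although all 6 KRT17 guides were positive, from 0.13 to 2.52, as held for 1.69% of all genes. KRT14 was at −0.21 ± 0.83. In the luminal layer KRT7 was at 0.24 ± 0.77 and KRT8 at −0.04 ± 0.73, with overlapping counts. KRT18, at 0.25 ± 0.38, had its lowest GSI count, 83.8, just above its highest DMSO count, 82.9, so that its groups did not overlap in mean counts (adjusted p = 0.996, RRA of edgeR guide tests). By the median level over guides they overlapped, at 0.39, 0.58 and 0.35 with DMSO and 0.91, 0.49 and 0.86 with GSI. The medians were 0.15 for basal and 0.10 for luminal keratins, and basal and luminal keratins together exceeded hair and other keratins by 0.09. That difference was −0.19 with a minimum mean count of 50. It was 0.20 without DMSO replicate 1, 0.0096 without DMSO replicate 3, and 0.030 and 0.051 without GSI replicates 1 and 2.

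A fold change of 0.5 or more was seen in 4 keratins (7.27%, background 4.65%) and one of −0.5 or less in 1 (1.82%, background 3.88%). The 17 hair keratins had a median of 0.22 in GSI against DMSO, with 11 positive and 6 negative, and the 9 root sheath keratins −0.05, with 7 negative (background below 0, 53.1%). KRT81, first by p on the low side in DMSO against T0, here had a fold change of 0.40 ± 1.11 (adjusted p = 0.965, RRA of edgeR guide tests), with overlapping counts. It was 0.70 without DMSO replicate 3, 0.63 without DMSO replicate 2 and 0.23 with library totals. The DMSO libraries enter both comparisons, so these values are not independent of those in DMSO against T0. KRT86 was at −0.24 ± 0.78, opposite in sign to KRT81. Taking for each gene the median level over its guides, 5 keratins were higher in every GSI library than in every DMSO library, 9.09% against a background of 4.9%, and 2 were lower, 3.64% against 4.44%. The 5 were KRT17, KRT23, KRT24, KRT33A and KRT35, all type I, with KRT23 and KRT35 named after their values were seen, and the 2 were KRT19 and KRT71. For KRT17, KRT23, KRT24, KRT33A and KRT71 the mean counts overlapped, so that KRT35 alone of the 5 and KRT19 of the 2 were separated in both summaries. For DMSO against T0 the same measure gave 7 higher and 8 lower (background 14.8% and 13.7%), and for GSI against T0 also 7 and 8 (background 16% and 13.7%). The single keratin with all guides below 0 in GSI against DMSO (background 2.23%) was KRT12, a type I keratin of the cornea named after its values were seen, at −0.28 ± 0.19.

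The number of copies of a target sequence differed widely within the family. The share of candidate coding sites with a further exact match in GRCh38 was high in the stress keratins KRT6C (89.9%), KRT6B (87.4%) and KRT6A (79.0%), which share most of their sites among themselves, with 224 sites common to KRT6B and KRT6C. KRT8 (83.6%) and KRT18 (80.2%) had similar values although they shared 6.10% and 0.483% of sites with other keratin genes, so that their further matches lay mostly outside the family, with up to 29 matches in the genome for a KRT18 site. High shares were also found in the basal keratins KRT14 (70.4%) and KRT17 (62.4%) and the stress keratin KRT16 (60.4%), with 84 sites common to KRT14 and KRT16. By contrast, no site of KRT20, KRT40 or KRT222 had a further match. As an example of the first group, the site below lies once each in coding exons of KRT6A (chr12:52493162-52493184), KRT6B (chr12:52452052-52452074) and KRT6C (chr12:52473711-52473733), all on the plus strand, and nowhere else, with the PAM in capitals.
KRT6A, KRT6B and KRT6C: cctgatggtggtggatgtgcTGG

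For 14 keratins at least 50% of candidate sites had a further match. Their median fold change in DMSO against T0 was −0.19, with 10 of 14 negative, and that of the remaining 41 was 0.05, with 17 negative. In GSI against T0, with the same T0 libraries, the medians were −0.09 with 7 of 14 negative and 0.22 with 14 of 41 negative. In GSI against DMSO they were 0.04 and 0.01. Across the 55 genes, the share of such sites and the fold change had a Pearson's r of −0.29 and a Spearman's rho of −0.24 in DMSO against T0, −0.30 and −0.17 in GSI against T0 and −0.06 and −0.04 in GSI against DMSO. The genes share libraries and related genes share sites, so these values are a description, and the part of extra cuts in the fold changes was not tested. KRT6C, with the highest share, had fold changes of −0.56 ± 0.54 and −0.82 ± 1.10 against T0 with DMSO and GSI, while KRT8, KRT6A and KRT14 were positive in both.

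**Figure D4:**
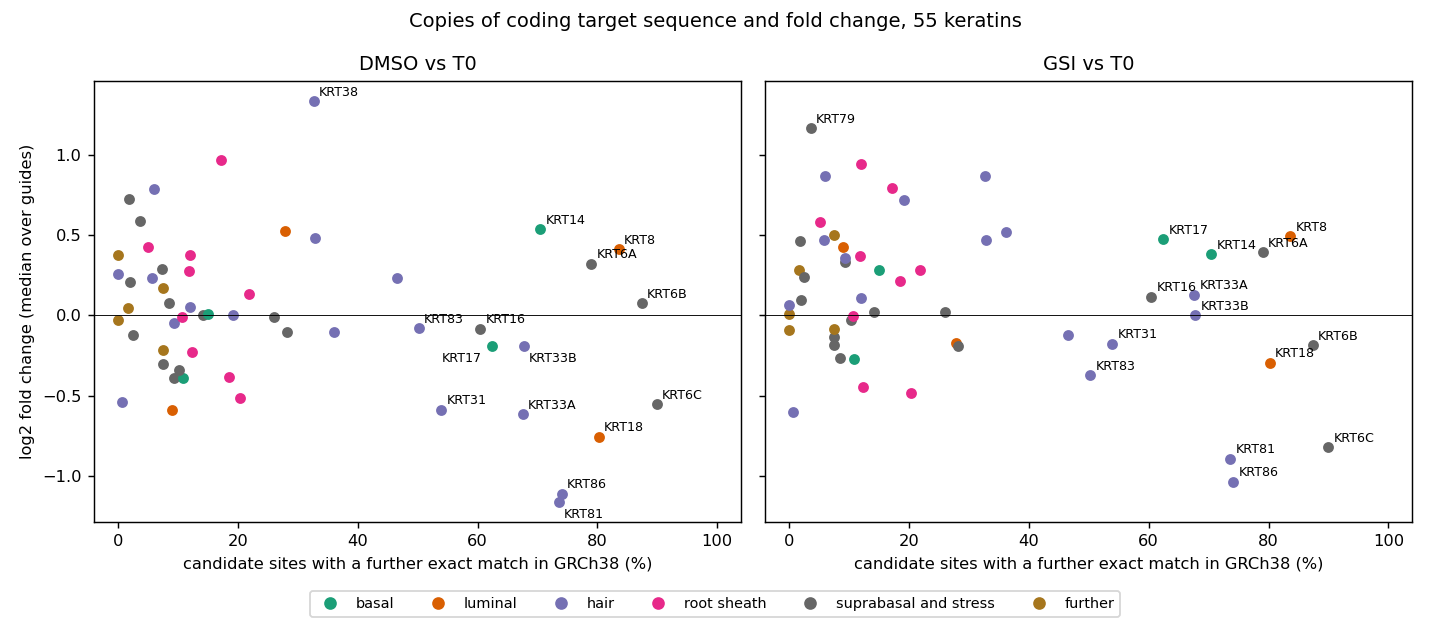
Log2 fold change of each of the 55 keratins (median over guides) against the percentage of its candidate coding sites with a further exact match in GRCh38, for DMSO and for GSI against T0, coloured by class. KRT81 and KRT86 are the lowest points in both panels, at 73.5% and 74.1% of sites, and keratins with shares above 80%, such as KRT8 and KRT18, lie on either side of 0.

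The keratins lie in 2 clusters, 27 genes on chromosome 12 between 52168996 and 52952906 and 28 on chromosome 17 between 40654665 and 41624842 (GRCh38). KRT18, though type I, is in the first. In DMSO against T0 the median was −0.01 over the keratins of chromosome 12 and 0.000748 over 42 further genes within the cluster or 1 Mb of it. On chromosome 17 it was 0.00303 over keratins, 0.00497 over 29 keratin-associated proteins and −0.10 over 63 further genes. In GSI against DMSO the keratin medians were −0.00119 and 0.04.

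Genes that work with keratins were taken from lists and gave no call in any comparison (RRA of edgeR guide tests, adjusted p under 0.05). Their counts at an unadjusted p under 0.05 stand against 6.3% of all genes on the low side and 5.3% on the high side in DMSO against T0, 5.88% and 5.39% in GSI against T0, and 5.1% and 5% in GSI against DMSO, and each is 0 to 2 genes a list and side. The 13 desmosome genes, whose products anchor keratin filaments at cell contacts, had medians of 0.33 in DMSO against T0, 0.31 in GSI against T0 and −0.17 in GSI against DMSO. At an unadjusted p under 0.05, 2 were on the high side in the first, with DSG2, a desmosomal cadherin, at 0.93 ± 0.90 (adjusted p = 0.837), none on either side in the second, and 1 on the low side in the third, DSC3 at −0.36 ± 0.80 (adjusted p = 0.959). The 11 genes of the hemidesmosome and plakin list had medians of 0.02, −0.05 and −0.04. In each comparison with T0, 1 was on the high side, DST at 0.26 and 0.40. Of 16 genes for other intermediate filaments, 2 were on the low side and 2 on the high side in DMSO against T0. LMNB1, a nuclear lamin, was the lowest of them at −1.42 ± 0.62 (adjusted p = 0.490) and was at −0.73 in GSI against T0, and PRPH, a neuronal filament protein, was at 1.37.

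The 16 genes of the keratin regulator list had medians of −0.03, −0.15 and −0.16 in the same order. GRHL2, an epithelial transcription factor, was at −0.52 ± 1.59 in GSI against T0 (adjusted p = 0.483), the 1 gene of the list with an unadjusted p under 0.05 there. In GSI against DMSO 2 were on the low side, with TP63, the basal cell factor that turns on KRT5 and KRT14, at −0.45 ± 0.41 (adjusted p = 0.957). The 15 genes of the cornified envelope, the protein shell of terminally differentiated keratinocytes, had medians of 0.11, −0.12 and 0.03. Of these 1 was on the low side and 1 on the high side in DMSO against T0, 2 on the high side in GSI against T0, and 2 on the low side in GSI against DMSO, with TGM3, a transglutaminase, at −0.48 ± 0.47 (adjusted p = 0.954).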

How the data were processed

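The abundance of each guide in MB157R genomic DNA was read in 8 libraries (T0, n = 2; DMSO, n = 3; GSI, n = 3), grouped by their labels. The authors removed adapters with bcl2fastq 2.19, inspected reads with FastQC 0.11.5 and counted guides of both half-libraries, A and B, with MAGeCK 0.5.9.2 at its default settings. The deposited count table gives raw counts per guide. A second table, deposited by the authors, gives a normalized signal per guide and was used only to check the share of guides at 0. Guide sequences were not analysed here, and no genome build is stated for the table. The keratins, their classes and the partner lists were chosen with earlier results of these data known.

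A guide entered the tests if its raw count averaged 10 or more across the 8 libraries, which held for 116852 and not for 2609. Size factors were median ratios, and the quasi-likelihood functions glmQLFit and glmQLFTest of edgeR 4.0.16 (limma 3.58.1, R 4.3.3) were run on the counts of the groups compared. The one-sided guide ranks were combined per gene by RRA (alpha 0.25, at least 4 guides), with exact p-values from uniform order statistics, and adjusted over all 18570 genes by the Benjamini-Hochberg method. Calls were made at an adjusted p under 0.05. MAGeCK's own gene test was not run. The genes named are the basal and luminal keratins and, in each comparison, the 3 keratins with the lowest p on each side, with guides described for the first of each side, and per list the gene with the lowest p. Other genes are marked as named after their values were seen. The guide and gene tests were checked on data simulated from the DMSO and GSI libraries only, not for the comparisons with T0. Alternatives were other scalings and filters, DESeq2 1.42.0, other RRA settings, all libraries in 1 fit, a replicate block and leaving out each library.

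Candidate sites (20 bases and NGG) in coding exons of canonical GENCODE transcripts were matched exactly to the main chromosomes of GRCh38. Positions are from GENCODE on GRCh38, where 18550 of 18913 symbols had one. Since the PCR reads carried no molecular identifiers, they cannot be taken as independent molecules, and the depth of 12.1 M to 18.2 M limits counting error alone. The 18.2 M of GSI replicate 1 was 11.1 M without its VPS33B guide.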

Additional observations from a re-analysis of the deposited data

How the results depend on the processing

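No keratin gene was called under any alternative in GSI against T0 or in GSI against DMSO, and in DMSO against T0 the 1 call was KRT81 by RRA on guide p-values. DESeq2 called 16 of 323 keratin guides in DMSO against T0 (6615 of 116852 guides in all) and 20 in GSI against T0 (7898 in all). Leaving out 1 library gave 0 to 22 and 0 to 47, the highest without T0 replicate 1, where 8292 and 21033 guides were called in all, and 13 without T0 replicate 2 in GSI against T0 (5497 in all). The median log2 fold change of keratins in DMSO against T0 was −0.25 with scaling to non-targeting controls, and −0.023 to 0.17 with 1 library left out. In GSI against T0 it was −0.048 with library totals, −0.13 with non-targeting controls, and 0.047 to 0.29 with 1 library left out. In GSI against DMSO it was −0.19 with library totals. These scalings moved the median of all genes alike, to −0.26 in DMSO against T0 and −0.24 in GSI against T0 with non-targeting controls, and to −0.16 and −0.22 in GSI against T0 and against DMSO with library totals. The difference of basal and luminal from hair and other keratins was 0.35, 0.055 and −0.19 in the 3 comparisons with a minimum mean count of 50, and with 1 library left out −0.40 to 0.25 in DMSO against T0, −0.46 to 0.25 in GSI against T0 and 0.0096 to 0.20 in GSI against DMSO. KRT73 in GSI against T0 was negative without T0 replicate 1 (−0.085) and without GSI replicate 3 (−0.022), and was 3.54 without T0 replicate 2. The cause of these changes was not tested.

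Replicate numbers are shared between DMSO and GSI, but they were not taken to pair the cultures, since the deviations from the group means correlated at 0.28, 0.06 and 0.12 for the same numbers, not all above 0.1. Each library correlated best with its own number, which is a hint from the data. The study states a division into triplicates, but not whether DMSO and GSI cultures of 1 number shared a split. With the number as a replicate block, 0 keratins were called in each comparison. The median of keratins under that block was 0.11 in GSI against DMSO, 0.30 in DMSO against T0 and 0.42 in GSI against T0, where the numbers carry no pairing. The medians of all genes moved too, to 0.03, 0.18 and 0.23. KRT86 in GSI against T0 was −0.56 under the block. Both comparisons with T0 rest on 2 T0 libraries, which had the most guides at 0, keratin or not.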
